A study of Caenorhabditis elegans with 26 samples.

Results

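The 8 genes described here are the GATA transcription factor genes of the endoderm and the epidermis of the nematode Caenorhabditis elegans: elt-1, elt-2, elt-3, elt-6, elt-7, egl-18, end-1 and end-3. They were taken by their symbols from a table of 42533 genes, which held all 8. Poly(A) RNA of whole day 1 adults was read in 26 libraries of 5 strains, each library made from 200 to 500 animals, to compare worms with different levels of flp-17, the gene of a neuropeptide of the BAG sensory neurons. All strains carry the reporter zcls4[hsp-4p::GFP]V, which reports on stress of the endoplasmic reticulum. AEF276 adds the loss-of-function allele flp-17(n4894)IV (n = 5). AEF378 holds the extrachromosomal array ashEx67, with flp-17 fused to GFP behind the gcy-31 promoter and a red coelomocyte marker (n = 5). AEF373 holds an untagged flp-17 array with its own promoter and an unc-122p::mCherry marker (n = 5); the array strain it was crossed from had a flp-17 null background, which was removed. AEF149 holds ssrEx1193, with flp-17 fused to GFP behind the flp-17 promoter and a muscle mCherry marker (n = 5). AEF231, with the reporter only, was the control (n = 6). AEF276, AEF378 and AEF373 are in the outcrossed background of AEF231, while AEF149 is in that of SJ4005, the parent before outcrossing.

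Not all animals of an array strain carry the array. A large particle sorter picked marker-positive animals of the 3 array strains 24 h ahead of collection, and AEF276 and AEF231 were not sorted but washed and replated. Against AEF231, effects of an array and of sorting cannot be told apart. For AEF149 the background differs as well, so its effect cannot be told apart from those of array and sorting. In AEF149 against AEF373, effects of the array and of the background cannot be told apart either. The labels give 2 batches: batch 2 held 6 libraries (2 each of AEF378, AEF373 and AEF231) and the remaining 20 were in batch 1. Depth ran between 9659877 and 15528669 counts a library. In CPM (read counts scaled to library size), flp-17 itself lay within 0 and 0.764 for AEF276, 6.45 and 9.18 for AEF378, 262 and 332 for AEF373, 353 and 409 for AEF149, and 2.18 and 5.56 for AEF231. The labels name the libraries replicates and do not mention separate cultures. The p-values are therefore relative to library-to-library spread, which may be technical.

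GATA factors are zinc finger proteins that bind DNA at the core letters GATA. In the worm they act in chains. In the embryo, the maternal factor SKN-1 switches on the small GATA genes med-1 and med-2, these help to switch on end-1 and end-3, which set the endoderm fate, and those in turn start elt-7 and elt-2, which drive the genes of the differentiated gut. ELT-2 also sustains its own gene and stays on in the gut through adult life. A parallel group acts in the skin: ELT-1 sets the epidermal fate, ELT-3 works below it in the epidermis, and EGL-18 and ELT-6 keep the fate of the seam cells, the stem-like cells of the lateral epidermis.

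Of the 8 genes, 6 passed the filter on low counts and were tested, and end-1 and end-3 did not. elt-6 rose in AEF373 and AEF149 against AEF231 (edgeR's quasi-likelihood test, Benjamini-Hochberg adjusted p below 0.05 over 13315 genes). No other gene of the 6 passed this threshold in any of the 6 comparisons. A relation of elt-6 to the flp-17 level was not tested. In AEF373 against AEF231, 1 of 6 rose and none fell, where 34.8% of all tested genes were called. In AEF149 against AEF231, 1 of 6 rose and none fell, where 17.5% were called. In AEF276 against AEF231 none of the 6 was called by edgeR (2 at an unadjusted p below 0.05, 0 by DESeq2), where 20.3% of all genes were called. In AEF378 against AEF231 none was called by edgeR (0 at an unadjusted p below 0.05, 0 by DESeq2), where 13.6% were. With 6 genes, 1 call is a share of 16.7%, close to the 17.5% of all genes in AEF149, and these shares are not read as a result about the GATA genes.

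Between array strains the count was also 0 of 6 in edgeR's test. For AEF378 against AEF373, 1 gene had an unadjusted p below 0.05 and DESeq2 called 0, with 9.6% of all genes called (3.68% higher and 5.92% lower in AEF378). For AEF149 against AEF373, 2 had an unadjusted p below 0.05 and DESeq2 called 0, with 32.3% of all genes called. Over the 36 pairs of gene and comparison, the 34 that were not called had log2 fold changes between -0.53 and 0.36, with 95% intervals that reached from -1.02 to 0.86. Both extremes were elt-6 intervals, in AEF378 against AEF373 and in AEF378 against AEF231. The other genes had narrower intervals, such as those of egl-18 between -0.30 and 0.32. Differences within a gene's own interval are therefore not shown to be absent. The median log2 fold change of the 6 genes against AEF231 was -0.19 for AEF276, 0.08 for AEF378, 0.17 for AEF373 and -0.01 for AEF149, where that of all tested genes was within 0.01 of 0. The comparisons with AEF231 share its 6 libraries, and those between array strains share the 5 of AEF373. In these whole-worm samples, fewer cells of a type and less RNA per cell cannot be told apart.

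**Figure D1:**
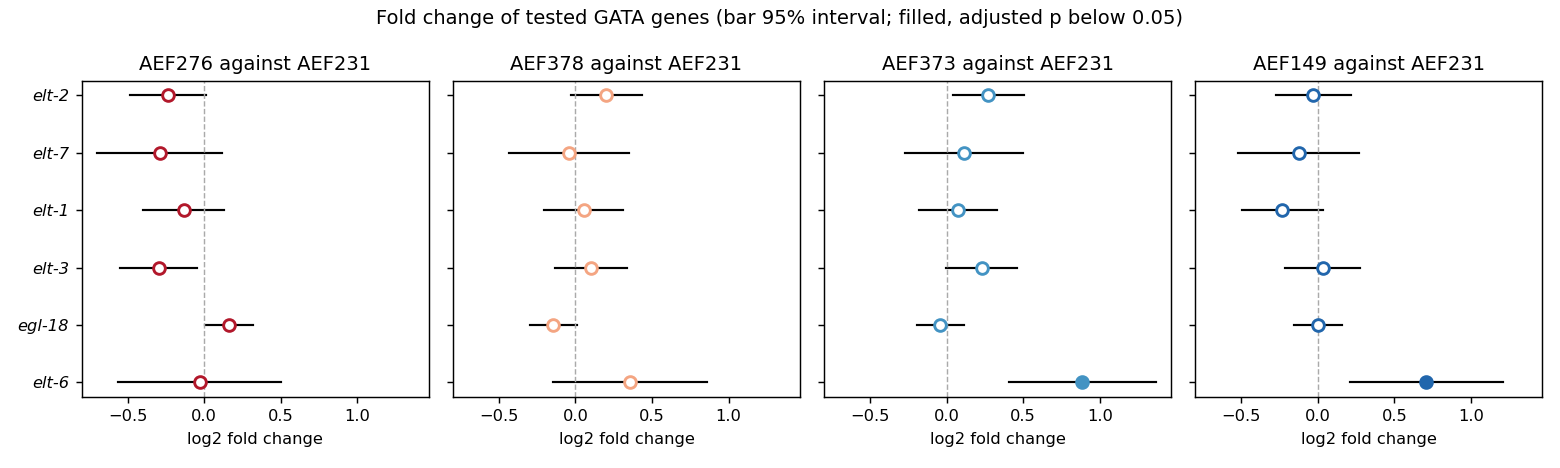
Log2 fold change (x axis) of the 6 tested GATA genes against AEF231, with AEF276, AEF378, AEF373 and AEF149 in a panel each; bars are 95% intervals and filled points have an adjusted p below 0.05. The filled points are elt-6 in AEF373 at 0.88 and elt-6 in AEF149 at 0.71.

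Per length of exon, the levels of these genes formed a steep series. Dividing CPM by the kilobases (kb) of the gene's merged exons, the means over all 26 libraries were 23.1 CPM per kb for egl-18, 10.2 for elt-3, 8.10 for elt-2, 4.56 for elt-1, 4.26 for elt-7 and 2.08 for elt-6. end-3 followed at 0.508 CPM per kb and end-1 at 0.391. egl-18, the seam and vulval factor, was above elt-3 in 26 of 26 libraries, and their ranges did not overlap. elt-3 was above elt-2, the gut factor, in 23 of 26 libraries, and elt-2 was above elt-1 in all 26. elt-1 and elt-7 changed places: elt-1 was higher in 16 of 26 libraries, so these neighbours did not differ beyond their spread. elt-7 was above elt-6 in 26 of 26. The same was true of end-3 and end-1 as of elt-1 and elt-7, with end-3 higher in 16 of 26.

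**Figure D2:**
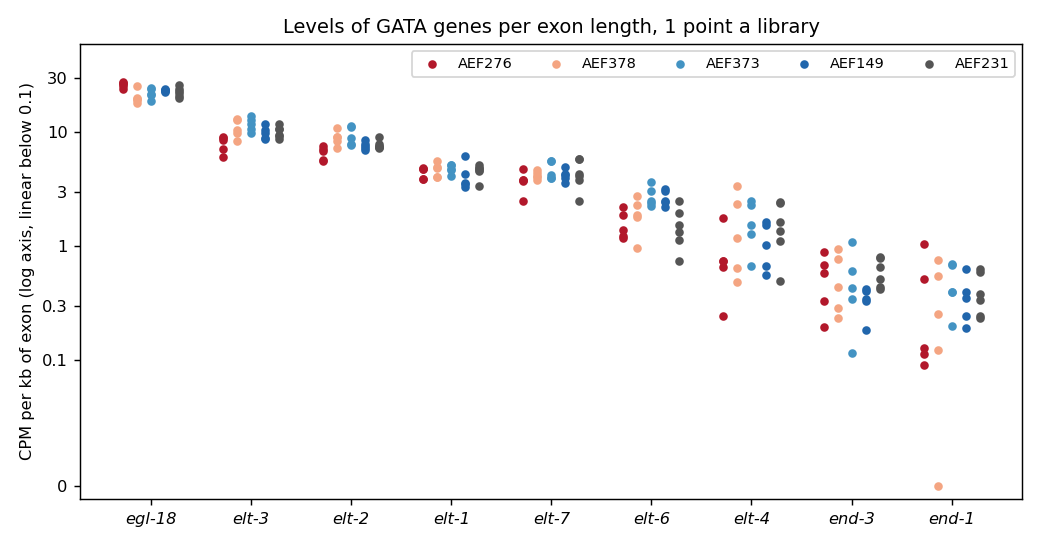
CPM per kb of exon (y axis, log scale above 0.1) in each library for the 8 genes and elt-4, coloured by strain. egl-18 sits above all others, near 23.1 on average, and end-3 and end-1 sit lowest, at means of 0.508 and 0.391.

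3 further GATA genes were looked up beside the 8. elt-4 (chromosome X, 10475527 to 10475959), a small gene that lies 5280 bases before elt-2 and resembles part of it, averaged 1.36 CPM per kb. Against AEF231 it was at -0.95 ± 0.56 log2 for AEF276, 0.01 ± 0.50 for AEF378, 0.10 ± 0.47 for AEF373 and -0.56 ± 0.52 for AEF149 (SE), none of them called (edgeR adjusted p between 0.234 and 0.993). With 1 to 14 reads per library, elt-4 was past the filter on low counts in 6 of 26 libraries. It would not have passed without the libraries of 1 strain, so these values show little. med-1 and med-2, the embryonic genes upstream of end-1 and end-3, had 2 and 10 reads over all 26 libraries. They were at 0 in 24 and 18 libraries.

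The endoderm specification genes were near the limit of what these libraries can show. end-1 (WBGene00001310, chromosome V, 13985128 to 13987074, plus strand, WBcel235) and end-3 (WBGene00001311, chromosome V, 14014695 to 14015980, plus strand) are neighbours, 27620 bases apart, and act redundantly in the E lineage, the founder of the gut. end-1 had 87 reads in all and between 0 and 8 per library, with 1 library, AEF378 replicate 3, at 0. end-3 had 131 reads in all and between 1 and 11 per library. end-3 also overlaps srh-308 on the other strand, so that its reads may be partly those of that gene, because the strand setting of the counting is not stated.

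Mean end-1 CPM was 0.283 ± 0.307 for AEF276, 0.253 ± 0.235 for AEF378, 0.356 ± 0.159 for AEF373 and 0.272 ± 0.13 for AEF149 (SD over 5 libraries), against 0.301 ± 0.128 in AEF231 (SD, n = 6). The strains overlapped throughout. Mean end-3 CPM was 0.461 ± 0.237 for AEF276, 0.462 ± 0.268 for AEF378, 0.447 ± 0.318 for AEF373 and 0.291 ± 0.0808 for AEF149, against 0.52 ± 0.147 in AEF231. In AEF149 the 5 libraries held 2, 4, 4, 4 and 4 reads of end-3, against 4 to 8 in AEF231, so the reads overlapped at 4. After scaling, the highest AEF149 library was at 0.3627 CPM and the lowest AEF231 library at 0.3633. Fitted without the filter, over 24897 genes, end-3 in AEF149 was at -0.70 ± 0.61 log2 (SE, edgeR adjusted p = 0.582), with a 95% interval from -1.91 to 0.50. At this depth a difference in end-1 or end-3 of about that size was not detectable.

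elt-2 (WBGene00001250, chromosome X, 10481240 to 10483441, plus strand) encodes the main factor of the differentiated gut. It was read at 11.1, 11.9, 10.8, 8.98 and 8.76 CPM in AEF276 replicates 1 to 5, against a lowest value of 11.5, a median of 11.8 and a highest value of 14.3 in AEF231. AEF276 thus lay low, with 1 library inside the range of AEF231. The log2 fold change was -0.24 ± 0.12 (SE, n = 5 against 6, edgeR adjusted p = 0.174), with a 95% interval from -0.48 to 0.01. In AEF378 elt-2 stood at 14.3, 14.2, 11.5, 13.2 and 17.1 CPM, of which 1 library was above all AEF231 libraries. The difference from AEF231 was 0.20 ± 0.12 (adjusted p = 0.262).

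In AEF373 elt-2 stood at 17.8, 12.04, 17.3, 12.4 and 13.99 CPM. Replicates 1 and 3 lay above all AEF231 libraries and the other 3 within their range. The log2 fold change of 0.27 ± 0.11 missed the threshold (edgeR adjusted p = 0.0578, 95% interval 0.04 to 0.50). It passed without AEF373 replicate 2 or 4 or AEF231 replicate 5, at adjusted p of 0.0255, 0.0211 and 0.0309, and the range over all libraries left out in turn was 0.0211 to 0.215. Within batches the difference was 0.41 ± 0.14 in batch 1 alone (adjusted p = 0.0202) and 0.04 ± 0.18 in batch 2 alone, with 2 libraries a strain (adjusted p = 0.932). The difference between batches was -0.40 (batch 2 minus batch 1, edgeR adjusted p = 0.644).

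In AEF149 elt-2 was read at 11.4, 11.7, 10.9, 13.3 and 12.4 CPM, within or near the AEF231 range. Its log2 fold change was -0.03 ± 0.12 (edgeR adjusted p = 0.917, 95% interval -0.27 to 0.21). Set against AEF373, AEF149 was at -0.30 ± 0.12 for elt-2 (adjusted p = 0.0568). This also passed without AEF149 replicate 4 or AEF373 replicate 2 or 4, at adjusted p of 0.0453, 0.0279 and 0.0298. The range over all libraries left out in turn was 0.0279 to 0.257. AEF378 against AEF373 was at -0.07 ± 0.12 (adjusted p = 0.782).

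elt-7 (WBGene00015981, chromosome V, 4770670 to 4773086, plus strand), whose protein shares the work of ELT-2 in the gut, was the least variable of the 6 tested genes in AEF378 (coefficient of variation 7.95%) and one of the more variable in AEF231 (29.6%). Its lowest, median and highest values were 2.10, 3.22 and 4.05 CPM for AEF276, 3.23, 3.46 and 3.96 for AEF378, 3.35, 3.55 and 4.73 for AEF373 and 3.01, 3.58 and 4.16 for AEF149, against 2.08, 3.54 and 4.95 in AEF231. All 4 strains lay within the range of AEF231. Log2 fold changes were -0.29 ± 0.20 for AEF276, -0.04 ± 0.19 for AEF378, 0.11 ± 0.19 for AEF373 and -0.13 ± 0.20 for AEF149 (SE, edgeR adjusted p between 0.323 and 0.922). At this level, with 22 to 64 reads per library, the 95% interval in AEF276 ran from -0.70 to 0.11.

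**Figure D3:**
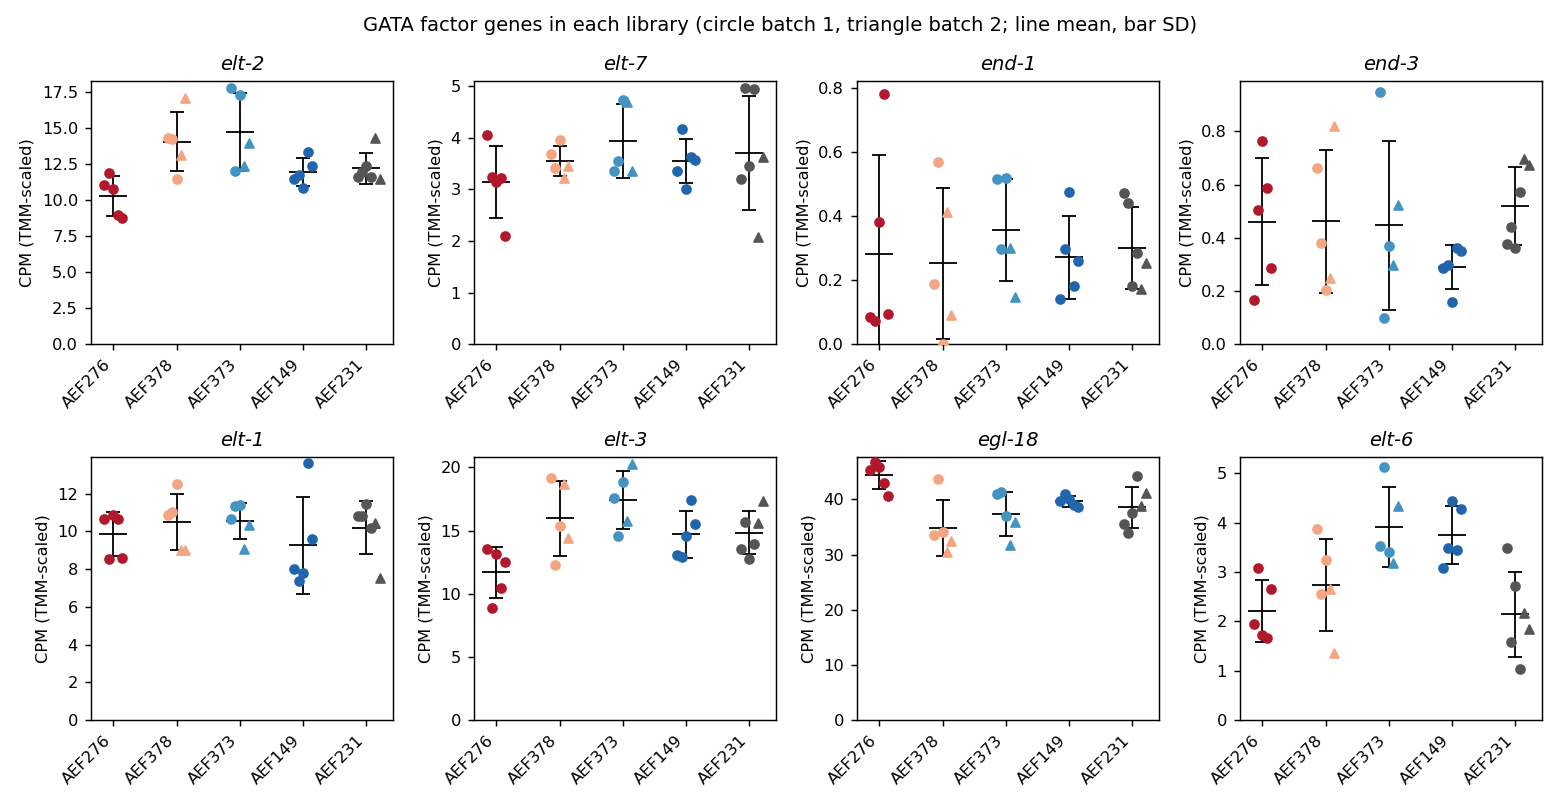
CPM (y axis, from 0) of the 8 GATA genes in each library by strain, circles for batch 1 and triangles for batch 2, with the mean as a line and the SD as a bar (cut at 0). The elt-6 panel shows all AEF373 and AEF149 libraries at 3.08 or above, and AEF231 with its highest library at 3.48.

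Among the epidermal factors, elt-1 (WBGene00001249, chromosome IV, 9614995 to 9620280, plus strand), which sets the epidermal fate in the embryo, had the narrowest spread of strain means, with the highest 1.14 times the lowest. Its lowest, median and highest values were 8.55, 10.6 and 10.9 CPM for AEF276, 9.01, 10.9 and 12.5 for AEF378, 9.08, 10.7 and 11.4 for AEF373 and 7.35, 8.01 and 13.6 for AEF149, against 7.51, 10.6 and 11.4 in AEF231. The strains overlapped, and AEF149 had both the lowest median and the highest single library. In AEF149 the log2 fold change was -0.23 ± 0.13 (SE, n = 5 against 6, edgeR adjusted p = 0.252). Without AEF149 replicate 4, the library at 13.6 CPM, it was -0.40 and passed the threshold (adjusted p = 0.0201). Against AEF373 it was -0.30 ± 0.14 with all libraries (adjusted p = 0.0876) and -0.47 without that one (adjusted p = 0.00445). Over all libraries left out in turn, the adjusted p ran from 0.0201 to 0.514 against AEF231 and from 0.00445 to 0.228 against AEF373. Against AEF231, the other 3 strains were at -0.14 ± 0.13 in AEF276, 0.05 ± 0.13 in AEF378 and 0.07 ± 0.13 in AEF373 (adjusted p between 0.508 and 0.831).

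elt-3 (WBGene00001251, chromosome X, 13934874 to 13941216, plus strand), which acts below elt-1 in the epidermis, had a wider spread of strain means, the highest 1.49 times the lowest. In AEF276 it was read at 13.5, 8.84, 13.2, 10.4 and 12.5 CPM, against a lowest value of 12.7, a median of 14.8 and a highest value of 17.4 in AEF231. 3 of the 5 AEF276 libraries were below all AEF231 libraries. The log2 fold change was -0.30 ± 0.13 (edgeR adjusted p = 0.0848, 95% interval -0.55 to -0.05). It passed the threshold without AEF276 replicate 1 or AEF231 replicate 3 (adjusted p = 0.0480 and 0.0484) and in a fit with no batch term (-0.35, adjusted p = 0.0400). Over all libraries left out in turn, the adjusted p ran from 0.0480 to 0.237.

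In AEF373 elt-3 stood at 17.5, 14.6, 18.9, 15.8 and 20.3 CPM, with 3 libraries above all those of AEF231. The log2 fold change was 0.23 ± 0.12 (edgeR adjusted p = 0.117), at 0.29 in batch 1 alone and 0.14 in batch 2 alone. In AEF378 elt-3 was read at 19.2, 12.2, 15.3, 18.7 and 14.4 CPM, a wide range around that of AEF231, and its log2 fold change was 0.10 ± 0.12 (adjusted p = 0.628). In AEF149 it was read at 13.1, 12.9, 14.6, 17.4 and 15.5 CPM, close to the range of AEF231, with 0.03 ± 0.12 (adjusted p = 0.897). elt-3 overlaps the non-coding genes K02B9.7 and K02B9.8, whose reads cannot be told apart from its own here.

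egl-18 and elt-6 form a tandem pair on chromosome IV. egl-18 (WBGene00001186, 1902322 to 1917840, plus strand) ends 136 bases before elt-6 (WBGene00001253, 1917977 to 1921643, plus strand) begins, with no other protein-coding gene between them. Their proteins act together in the seam and in the vulval precursor cells, and in these adults the gene levels differed widely: egl-18 averaged 23.1 and elt-6 2.08 CPM per kb.

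elt-6 rose in AEF373. It was read at 3.53, 5.13, 3.40, 3.19 and 4.34 CPM there, against a lowest value of 1.05, a median of 2.01 and a highest value of 3.48 in AEF231. 3 of 5 AEF373 libraries were above all AEF231 libraries, and the other 2 were above 5 of the 6, so that the groups overlapped by 1 AEF231 library. The means were 3.92 ± 0.806 CPM in AEF373 (SD, n = 5) and 2.15 ± 0.863 in AEF231 (n = 6). The log2 fold change was 0.88 ± 0.24 (SE, edgeR adjusted p = 0.00325), which is 1.85-fold, with a 95% interval from 0.41 to 1.36. It was 0.85 ± 0.30 in batch 1 alone (adjusted p = 0.0253) and 0.92 ± 0.38 in batch 2 alone (adjusted p = 0.161). The call held without each of the 11 libraries in turn (adjusted p between 0.00091 and 0.0153).

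elt-6 also rose in AEF149, with less certainty. It was read at 3.08, 3.49, 4.44, 3.45 and 4.27 CPM there. 3 of 5 libraries were above all those of AEF231, and AEF231 replicate 1, at 3.48, was above the other 2. The mean was 3.75 ± 0.584 CPM in AEF149 (SD, n = 5), and the log2 fold change against AEF231 was 0.71 ± 0.25 (SE, edgeR adjusted p = 0.0389), or 1.64-fold, with a 95% interval from 0.21 to 1.21. The call ended without AEF149 replicates 2, 3 or 5 (adjusted p = 0.0523, 0.0987 and 0.0823) and without AEF231 replicates 2 or 4 (adjusted p = 0.103 and 0.1402), at log2 fold changes from 0.53 to 0.73. AEF149 had no batch 2 library, and in a fit of batch 1 alone the change was 0.78 ± 0.27 (adjusted p = 0.0383).

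In the other strains elt-6 stayed nearer to AEF231. AEF378 had 3.88, 2.56, 3.25, 2.65 and 1.36 CPM, with replicate 1 above all AEF231 libraries and the other 4 within their range. Its log2 fold change was 0.36 ± 0.25 (SE, edgeR adjusted p = 0.377), with a 95% interval from -0.15 to 0.86. AEF276 had 1.94, 3.09, 1.72, 1.66 and 2.67 CPM, all within the AEF231 range, and a log2 fold change of -0.03 ± 0.26 (adjusted p = 0.955, 95% interval -0.56 to 0.50). Between array strains, AEF378 was at -0.53 ± 0.24 against AEF373 (adjusted p = 0.178), and AEF149 was at -0.18 ± 0.25 against AEF373 (adjusted p = 0.622), so that neither was shown to differ from AEF373. With 11 to 58 reads per library, elt-6 was the lowest of the 6 tested genes.

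egl-18, the upstream neighbour, gave no call in any of the 6 comparisons. In AEF276 it stood at 45.4, 46.8, 45.9, 43.0 and 40.6 CPM, against a lowest value of 34.0, a median of 38.2 and a highest value of 44.3 in AEF231. 3 of the 5 AEF276 libraries were above all AEF231 libraries, and the log2 fold change was 0.16 ± 0.08 (SE, edgeR adjusted p = 0.130, 95% interval 0.01 to 0.32). In AEF373 it was read at 41.0, 41.4, 37.05, 31.7 and 35.8 CPM, on both sides of the AEF231 median, at -0.04 ± 0.07 (adjusted p = 0.712, 95% interval -0.19 to 0.11). In AEF149 its 5 libraries lay within 38.6 and 41.0 CPM, the tightest group of any tested GATA gene (coefficient of variation 2.46%), at 0.00037 ± 0.08 (adjusted p = 0.999).

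In AEF378 egl-18 was read at 33.5, 43.6, 34.0, 30.5 and 32.4 CPM. 4 libraries lay at the low end of AEF231 or below it, and replicate 2 lay high. The log2 fold change was -0.14 ± 0.08 (SE, edgeR adjusted p = 0.214), and -0.23 without replicate 2, where it passed the threshold (adjusted p = 0.0377). Over all libraries left out in turn, the adjusted p ran from 0.0377 to 0.468. Within batches the log2 fold change was -0.04 ± 0.09 in batch 1 alone and -0.34 ± 0.11 in batch 2 alone (adjusted p = 0.839 and 0.101). egl-18 also overlaps 3 non-coding genes on the other strand.

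As a share of the reads of both genes, elt-6 held 4.76 ± 1.31% for AEF276, 7.33 ± 2.53% for AEF378, 9.46 ± 1.4% for AEF373 and 8.63 ± 1.27% for AEF149 (SD over 5 libraries), against 5.35 ± 2.28% in AEF231 (SD, n = 6). The lowest AEF373 library was at 7.92% and the lowest AEF149 library at 7.20%, against a median of 4.88% and a highest library of 8.94% in AEF231. These shares are a description, since elt-6 was looked at in this way after its change was known.

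Lists of genes that these factors are known for, or that are made in the same tissues, were set beside the members. Intestinal genes, the tissue of elt-2 and elt-7, had 23 of 24 members tested. In AEF276 none rose and 9 fell, with a median log2 fold change of -0.12, where 11.2% of all tested genes rose and 9.08% fell around a median of 0.00. act-5, the actin of the gut brush border, fell by 0.39 (SE 0.07), and vha-6, a proton pump subunit of the gut lumen, fell by 0.21 (SE 0.05). In AEF149 2 rose and 13 fell with a median of -0.18 (6.51% and 11% of all genes), among them vha-6 at -0.35 ± 0.05 and the cathepsin B gene cpr-6 at -0.35 ± 0.05. The gut intermediate filament gene ifb-2 at 0.30 ± 0.06 and its organiser ifo-1 at 0.35 ± 0.08 were the 2 that rose.

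The same list had more rises than falls in the other array strains. In AEF373 7 rose and 3 fell with a median of 0.10 (17.9% and 16.9% of all genes), with ifo-1 at 0.58 ± 0.08, the aspartyl protease gene asp-3 at 0.40 ± 0.06 and the metallothionein gene mtl-2 at -0.87 ± 0.16. In AEF378 6 rose and 1 fell with a median of 0.08 (7.68% and 5.92% of all genes), with ifo-1 at 0.41 ± 0.08, ifb-2 at 0.30 ± 0.06 and mtl-2 at -0.68 ± 0.16. Against AEF373, AEF149 had 0 higher and 18 lower of 23 with a median of -0.25, where 13.2% and 19% of all genes were called. In this comparison falls also outnumbered rises in further lists, such as body wall muscle (0 higher and 9 lower of 10). Moulting genes had 1 higher and 11 lower of 15, and epidermal genes 5 and 13 of 25. Rises outnumbered falls for vitellogenin (3 and 2 of 6), upstream endoderm (5 and 1 of 13), oogenic (4 and 0 of 12) and early zygotic genes (1 and 0 of 5). A relation of these lists to elt-2 was not tested. elt-2, not itself called, was at 0.27 in AEF373 and -0.03 in AEF149 against AEF231. The vitellogenin genes, whose yolk proteins the gut makes, fell in 4 of 6 in AEF373 and 4 of 6 in AEF149, and in 2 of 6 in AEF378, with vit-3 at -0.81 ± 0.08 in AEF373, -0.48 ± 0.08 in AEF149 and -0.24 ± 0.08 in AEF378. The shares of all genes that fell were 16.9% in AEF373, 11% in AEF149 and 5.92% in AEF378. In AEF276 none of the 6 was called by edgeR.

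Genes upstream of the endoderm factors, the Wnt pathway and maternal regulators, had 13 of 13 members tested. In AEF276 4 of 13 rose, such as apr-1, an APC-related gene, at 0.22 ± 0.05, and none fell, where 11.2% of all genes rose and 9.08% fell. In AEF373 1 of 13 rose and 6 fell, such as pal-1, a caudal-type homeobox gene, at -0.24 ± 0.05, where 17.9% of all genes rose and 16.9% fell. In AEF378 1 fell (pal-1 at -0.16 ± 0.05), where 5.92% of all genes fell, and in AEF149 none was called, where 17.5% were. Of 17 early zygotic genes, which mark young embryos inside the mother, 5 were tested. 3 fell in AEF373, 1 in AEF378 and 1 in AEF149, against the same shares of all genes (11% fell in AEF149), and none was called in AEF276. The nuclear receptor gene nhr-2 was at -0.48 ± 0.10 in AEF378, -0.39 ± 0.10 in AEF373 and -0.39 ± 0.10 in AEF149.

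Of the epidermal genes, the tissue of elt-1 and elt-3, all 25 listed were tested. In AEF373 12 rose and 4 fell with a median of 0.44, where 17.9% of all genes rose and 16.9% fell. The furrow collagen genes dpy-10 and dpy-2 were at 2.20 ± 0.16 and 3.22 ± 0.28, while the cuticle collagen genes dpy-4 and dpy-5 were at -2.84 ± 0.73 and -3.56 ± 0.92. The last 2 were near the floor, at means of 0.433 and 0.250 CPM in AEF373 against 3.18 and 3.16 in AEF231. For dpy-4 and dpy-5, 0 AEF373 libraries were past the filter on low counts. In AEF378 9 rose and none fell with a median of 0.17 (all genes 7.68% and 5.92%), among them the furrow collagen gene dpy-7 at 2.12 ± 0.36 and sma-1, a spectrin gene, at 0.49 ± 0.07. In AEF149 2 rose and 2 fell with a median of 0.06 (all genes 6.51% and 11%), with the collagen genes col-144 at 2.40 ± 0.24 and col-19 at -0.83 ± 0.07. In AEF276 1 rose and 2 fell with a median of -0.10 (all genes 11.2% and 9.08%), with sma-1 at 0.35 ± 0.07 and dpy-5 at -2.41 ± 0.81. There too dpy-5 was low, at a mean of 0.583 CPM in AEF276. In the same 4 comparisons elt-1 and elt-3 had log2 fold changes between -0.30 and 0.23.

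Seam-related genes, the tissue of egl-18 and elt-6, had 13 of 15 members tested. 4 of the 13 (bro-1, bus-8, lin-22 and nhr-67, named after their values were seen) would not have passed the filter on low counts without the libraries of 1 strain, so the counts of this list support nothing. In AEF373 4 rose and 1 fell, where 17.9% of all genes rose and 16.9% fell, and bro-1 and bus-8 were among the 4. The hedgehog-related gene wrt-2, past the filter in all 26 libraries, was at 1.93 ± 0.25. bro-1, a partner of the Runx factor of the seam, had 75 reads over the 5 AEF373 libraries and 43 over the 5 AEF378 libraries, against 4 over the 6 AEF231 libraries. It was read past the filter in AEF373 and AEF378 libraries only, so its difference is fixed by that choice and no fold is given. In AEF149 4 rose and 1 fell (all genes 6.51% and 11%), with the hedgehog-related gene grd-13 at 0.75 ± 0.20 and grd-3 at -1.02 ± 0.08. In AEF378 2 rose and none fell (all genes 7.68% and 5.92%), namely bro-1 and the cadherin gene cdh-3 at 0.34 ± 0.11. In AEF276 1 rose and 2 fell (all genes 11.2% and 9.08%), with cdh-3 at 0.46 ± 0.11 and grd-10 at -0.95 ± 0.20.

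The genes of 3 further lists were summed in the array strains. The moulting list is not one of another tissue, as it shares nhr-23 with the epidermal list. The summed level of 15 moulting genes lay between 319 and 475 CPM in AEF373, 201 and 233 in AEF149 and 219 and 286 in AEF378, against 172 to 219 in AEF231. 10 of 15 rose in AEF373, 1 rose and 1 fell in AEF149, and 7 rose in AEF378. The 10 pan-neuronal genes summed to between 243 and 308 CPM in AEF373, 268 and 296 in AEF149 and 226 and 288 in AEF378, against 215 to 259 in AEF231. Of these 7 rose in AEF373, 4 in AEF149 and 1 in AEF378. The 6 pharyngeal genes summed to between 239 and 260 CPM in AEF373, 251 and 321 in AEF149 and 200 and 244 in AEF378, against 147 to 218 in AEF231. Of these 4 rose in AEF373, 4 in AEF149 and 2 in AEF378. ceh-22, a pharyngeal homeobox gene and 1 of the 4 in AEF373, passed the filter on low counts only with the AEF373 libraries. The shares of all genes that rose were 17.9% in AEF373, 6.51% in AEF149 and 7.68% in AEF378. No gene of these 3 lists was at 0 in all libraries of a strain, and their part in the rise of elt-6 was not tested.

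The remaining tissue lists are given beside the shares of all genes that rose and fell, which were 11.2% and 9.08% in AEF276, 7.68% and 5.92% in AEF378, 17.9% and 16.9% in AEF373, and 6.51% and 11% in AEF149. Of 10 body wall muscle genes, none rose and 6 fell in AEF276, 5 rose and none fell in AEF378, 6 rose and none fell in AEF373, and 1 rose and 7 fell in AEF149. Of 12 oogenic germ line genes, 9 rose in AEF276, 5 fell in AEF378, 5 fell in AEF373, and 1 rose and 2 fell in AEF149. Of 8 tested sperm genes, 8 fell in AEF276, none was called in AEF378, 2 fell in AEF373 and 8 fell in AEF149.

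**Figure D4:**
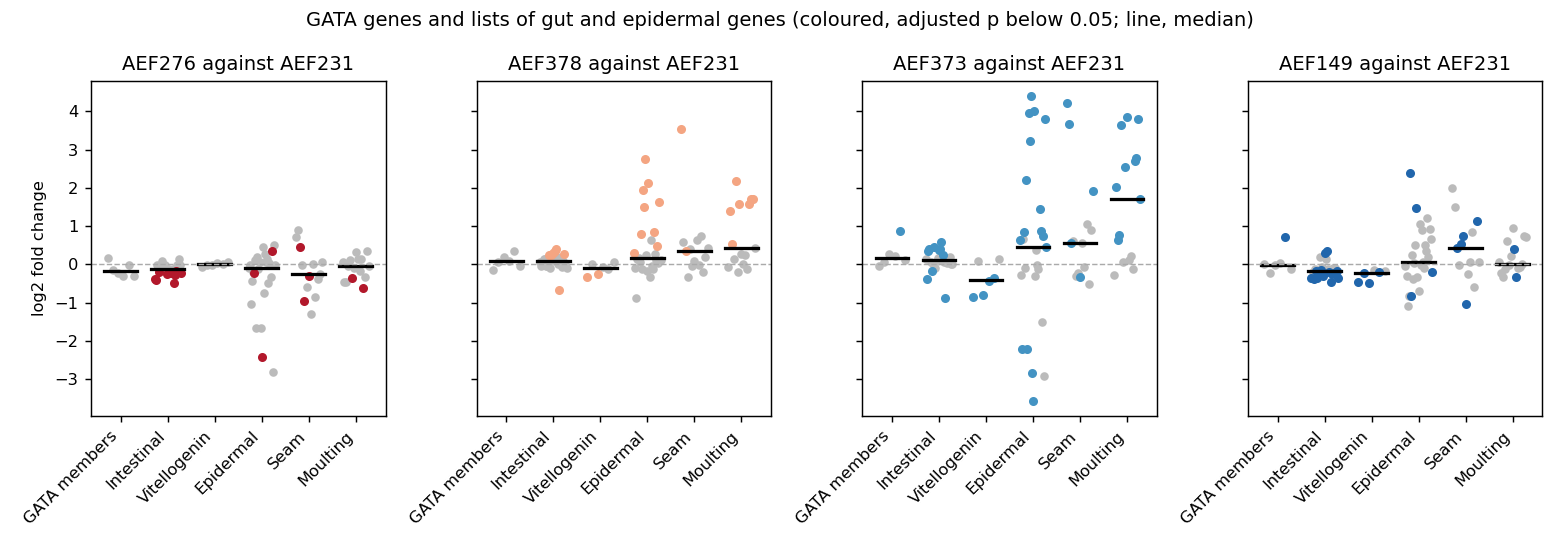
Log2 fold change against AEF231 (y axis) of each tested gene of 6 lists, with a panel each for AEF276, AEF378, AEF373 and AEF149; coloured points have an adjusted p below 0.05 and black lines are medians. The GATA genes stay between -0.30 and 0.88, while moulting genes in AEF373 have a median of 1.71.

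The order of the strains was shared by some of the members. The mean CPM, with no batch term, was highest in AEF373 for 6 of the 8 genes (elt-1, elt-2, elt-3, elt-6, elt-7 and end-1). The share of all genes with their highest mean in AEF373 is not given, so this count is a description only. For elt-1 the means were close, at 10.6 CPM in AEF373 and 10.5 in AEF378, and end-1 was not tested. The mean CPM was lowest in AEF276 for elt-2, elt-3 and elt-7. elt-2 and elt-3 had the same order of all 5 strains, with AEF373 highest, then AEF378, AEF231, AEF149 and AEF276. egl-18 stood apart with its highest mean in AEF276 and its lowest in AEF378.

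Over the 26 libraries, with the batch term removed, the 15 pairs of tested members had Pearson correlations of log2 CPM between -0.51 and 0.52. The highest was between elt-2 and elt-3 (r = 0.52) and the lowest between elt-3 and egl-18 (r = -0.51). All 5 pairs that include egl-18 were below 0, its pair with elt-6 at -0.29. These points share libraries, depth and RNA composition, and the values are a description. By the same measure, over 10673 genes that averaged 2 CPM or more, the genes most like each member were cah-3 for elt-2 (r = 0.84), F44A2.3 for elt-3 (r = 0.81), Y54G11A.7 for elt-6 (r = 0.82), pcf-11 for egl-18 (r = 0.80), ttr-3 for elt-1 (r = 0.73) and W10G11.2 for elt-7 (r = 0.67). The next 2 were C16B8.3 and ncs-2 for elt-2, ttr-25 and dhs-29 for elt-3, acy-1 and T03F1.11 for elt-6, deps-1 and tbc-20 for egl-18, tsp-9 and gst-42 for elt-1, and tmc-1 and F27D9.7 for elt-7. No member was among the 3 most like genes of another. Picked as the highest of 10673 correlations over 26 libraries, these values are partly fixed by that choice. How high they would be by that choice alone was not tested.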

How the data were processed

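RNA was prepared with Trizol and a column cleanup and enriched for poly(A), per the labels' protocols. The authors deposited whole-number read counts per gene symbol and library; STAR 2.7.11b and genome build ce11 are named in the submitters' processing notes. For the counting tool, its strand setting and the annotation release, nothing is stated in the sources used here. Positions and exon lengths come from the Ensembl annotation of WBcel235, the assembly of ce11.

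Counts were used as deposited. Genes were filtered with filterByExpr by strain and scaled by TMM. edgeR 4.0.16 (R 4.3.3) was fitted by robust quasi-likelihood to all 26 libraries with terms for strain and batch, and p-values were adjusted by the Benjamini-Hochberg method over 13315 genes at a threshold of 0.05. 95% intervals use the fit's t quantiles. The fit was tested on simulated counts. All 55 pairs of replicates differed by more than sampling noise (chi-square a gene of 3.32 to 14.2).

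The members, 14 gene lists (the members and 3 other GATA genes among them), tests and the rule for named genes were chosen with earlier results of these data known. The rule names the members, elt-4, med-1, med-2, up to 2 called genes each way per list and comparison, and the 3 genes most like each member; from these the text gives a selection. Alternatives were other size factors (RLE, upper quartile), DESeq2 1.42.0, no filter, a filter of 1 CPM in 5 libraries, no batch term, each batch alone, a replicate block, only the strains compared, no robust weights, a threshold of 0.01 and each library left out. The elt-6 share and the strain orders were added after the values were seen.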

Additional observations from a re-analysis of the deposited data

Results flagged for a closer look

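Of 40 groups (8 genes in 5 strains), 3 held a library that stood apart from its replicates by Dixon's criterion, which chance alone meets in about 1 in 20 groups. elt-1 was at 7.51 CPM in AEF231 replicate 6, below the other 5 AEF231 libraries. elt-2 was at 14.3 CPM in AEF231 replicate 5, above its replicates. egl-18 was at 43.6 CPM in AEF378 replicate 2, above the other 4 libraries of that strain. Without that library its log2 fold change against AEF231 was -0.23 and passed the threshold. With all libraries it was -0.14 and did not pass (edgeR adjusted p = 0.214).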

How the results depend on the processing

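The number of GATA genes called depended on the processing in 4 of 6 comparisons. In AEF276 against AEF231 it was 1 (elt-3) with no batch term, against 0. In AEF373 against AEF231, against 1, it was 2 (elt-2 and elt-6) with upper quartile size factors, 2 with batch 1 alone and 0 with batch 2 alone. In AEF149 against AEF231 it was 0 at a threshold of 0.01, against 1. In AEF149 against AEF373, against 0, it was 1 (elt-2) with upper quartile size factors, 1 with no batch term, 1 with batch 1 alone and 1 with only the strains compared. The cause was not tested. With each library left out in turn the count lay between 0 and 1 in AEF276, 0 and 1 in AEF378, 1 and 2 in AEF373 and 0 and 2 in AEF149 against AEF231, and between 0 and 2 in AEF149 against AEF373. It stayed at 0 for AEF378 against AEF373 under the alternatives run.

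Signs turned for small values that were not called. elt-6 in AEF276 was at 0.060 with no batch term and 0.0061 with the replicate block, and between -0.24 and 0.14 with libraries left out. Against AEF231 in batch 2 alone elt-7 was at 0.23 in AEF378, and with batch 1 alone it was at -0.087 in AEF373. With libraries left out elt-7 lay between -0.18 and 0.047 in AEF378 and between -0.019 and 0.21 in AEF373. egl-18 in AEF373 was at 0.018 with upper quartile size factors, 0.071 with batch 1 alone and 0.0017 with the replicate block, and between -0.067 and 0.020 with libraries left out. egl-18 in AEF149 lay between -0.030 and 0.048. elt-2 in AEF149 was at 0.033 with batch 1 alone and 0.013 with only the strains compared, and between -0.068 and 0.037 with libraries left out. elt-3 in AEF149 was at -0.016 with no batch term, and between -0.031 and 0.088. Against AEF373, elt-1 in AEF378 was at 0.027 with batch 1 alone and between -0.061 and 0.011 with libraries left out, elt-2 in AEF378 was at 0.19 with batch 2 alone, and egl-18 in AEF149 was at -0.0085 with only the strains compared. Over 414 values for single genes under other processing, 392 kept direction and side of the threshold. With libraries left out in turn, 346 of 384 values did so, while 22 turned sign, 11 gained a call and 5 lost it.

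Same-numbered libraries correlated in their deviations from strain means between -0.23 and 0.12, above 0.1 in 1 of 30 pairs. No pairing was seen by this measure, which cannot show that none exists. The replicate block used the replicate number of the titles. A characteristic named group is not explained in the labels and was not used as a block. With the replicate block the counts of GATA genes called were 1 in AEF373, 1 in AEF149 and 0 in the other 4 comparisons, as without it; elt-6 had an adjusted p of 0.0126 in AEF373 and 0.0496 in AEF149. Low counts limit elt-6, elt-7, end-1 and end-3 most.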
